A study of Homo sapiens with 11 samples.

Results

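The 4 receptors of the EGFR family (EGFR, ERBB2, ERBB3 and ERBB4) and 6 of their ligands (AREG, EREG, TGFA, HBEGF, BTC and EGF) were followed over RNA arrays of A549 and HCC827, 2 established human lung adenocarcinoma cell lines. All probes whose RefSeq accession belongs to one of these 10 genes were taken, which gave 17 of the 42405 probes of the array, for 10 of 20245 named genes. The receptors had 9 of these probes and the ligands had 8. The study asked which transcripts differ between cells with stable expression of TRIM58, a ubiquitin ligase, and cells without it. A549 cells carried an empty retroviral vector, called mock (3 replicates on 4 arrays), or FLAG-tagged wild-type TRIM58, called TRIM58-WT (3 replicates on 3 arrays). From HCC827, RNA of 2 mock and 2 TRIM58-WT cell preparations was hybridised. All of the cells had been infected with retrovirus and selected with G418. The study describes its A549 transfectants as clones and those of HCC827 as crude, uncloned populations, so in A549 clonal differences and TRIM58 expression cannot be told apart.

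EGFR, ERBB2, ERBB3 and ERBB4 are receptor tyrosine kinases that signal as pairs. EGFR and ERBB4 bind ligands and have active kinases, ERBB2 has no known ligand, and ERBB3 binds neuregulins but has very weak kinase activity of its own and signals mainly through PI3 kinase. AREG, TGFA and EGF bind EGFR, whereas EREG, HBEGF and BTC bind both EGFR and ERBB4, and all are made as membrane proteins that proteases such as ADAM17 release. HCC827 is known for an activating deletion in the EGFR kinase domain with extra copies of the gene, whereas EGFR is unmutated in A549.

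Signal is given as log2 of the background-corrected signal minus the 75th percentile of its array, so that 0 is the 75th percentile, and below it is called the relative log2 signal. At least 40.1% of the probes of each array were well above background. Among the 17 members, 7 passed that test on all 11 arrays, 7 on some and 3 on none. The array's only TRIM58 probe was well above background on 1 array, A549 mock 3, at -0.71, and lay between -5.64 and -4.63 on the other arrays, the TRIM58-WT arrays included. The construct held the coding sequence, and whether this probe lies within it was not determined, so the arrays are named by their labels throughout. A549 mock 3 stood apart from the other A549 mock arrays, with an SD of the log2 differences of 0.68 to 0.82 against 0.29 to 0.46 among the others. It lay about as near to TRIM58-WT 2 and 3 (0.77), from which the other mock arrays differed by 1.16 to 1.26. A549 TRIM58-WT 2 and 3 differed by an SD of only 0.24, less than the 0.29 between mock 1-1 and 1-2, which came from the same control cell. Whether TRIM58-WT 2 and 3 are separate clones was not stated, and the tests count them as 2 replicates. TRIM58-WT 1 differed from TRIM58-WT 2 and 3 by 0.79 to 0.82. Mock 1-2, mock 3, TRIM58-WT 2 and TRIM58-WT 3 of A549 shared 1 slide, and all other arrays shared the other. P-values measure the spread between these replicates only.

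In A549, the arrays labelled TRIM58-WT held less ERBB3 and AREG RNA than the mock arrays, while EGFR and ERBB2 differed by less than the threshold. In HCC827, ERBB4 RNA was lower on the TRIM58-WT arrays and neither AREG nor ERBB3 was called. A probe was called when limma's Benjamini-Hochberg adjusted p was under 0.05 and the difference was at least 2-fold. In A549, 9 member probes were tested and 4 were called, all of them lower, whereas 6.92% of all 16924 tested probes were called, 3.49% higher and 3.43% lower. Both ERBB3 probes entered this test through the mock arrays alone and so could only be lower. When every array had to be well above background, 2 of 7 member probes were called, both of AREG, beside 4.5% of all probes. In HCC827, 13 member probes were tested and 1 was called, lower, beside 0.884% of all 19563 tested probes, 0.291% higher and 0.593% lower. That probe, of ERBB4, also entered through the mock arrays alone. Under the stricter filter 0 of 12 member probes were called in limma (4 at an unadjusted p under 0.05), beside 2.11% of all probes. The median log2 difference of the tested member probes was -0.63 in A549, beside 0.06 over all tested probes, and 0.04 in HCC827, beside 0.01. When the difference between lines was tested on its own, at an adjusted p under 0.05, 4 of 13 member probes were called beside 3.86% of all 20642 probes. These were 1 AREG probe and 2 ERBB3 probes, with the lower change in A549, and 1 ERBB4 probe, with the lower change in HCC827. The ERBB4 probe entered through the HCC827 mock arrays alone and so could only differ in that direction. When every array had to be well above background, 1 of 7 member probes was called for this difference, beside 2.84% of all probes.

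**Figure D1:**
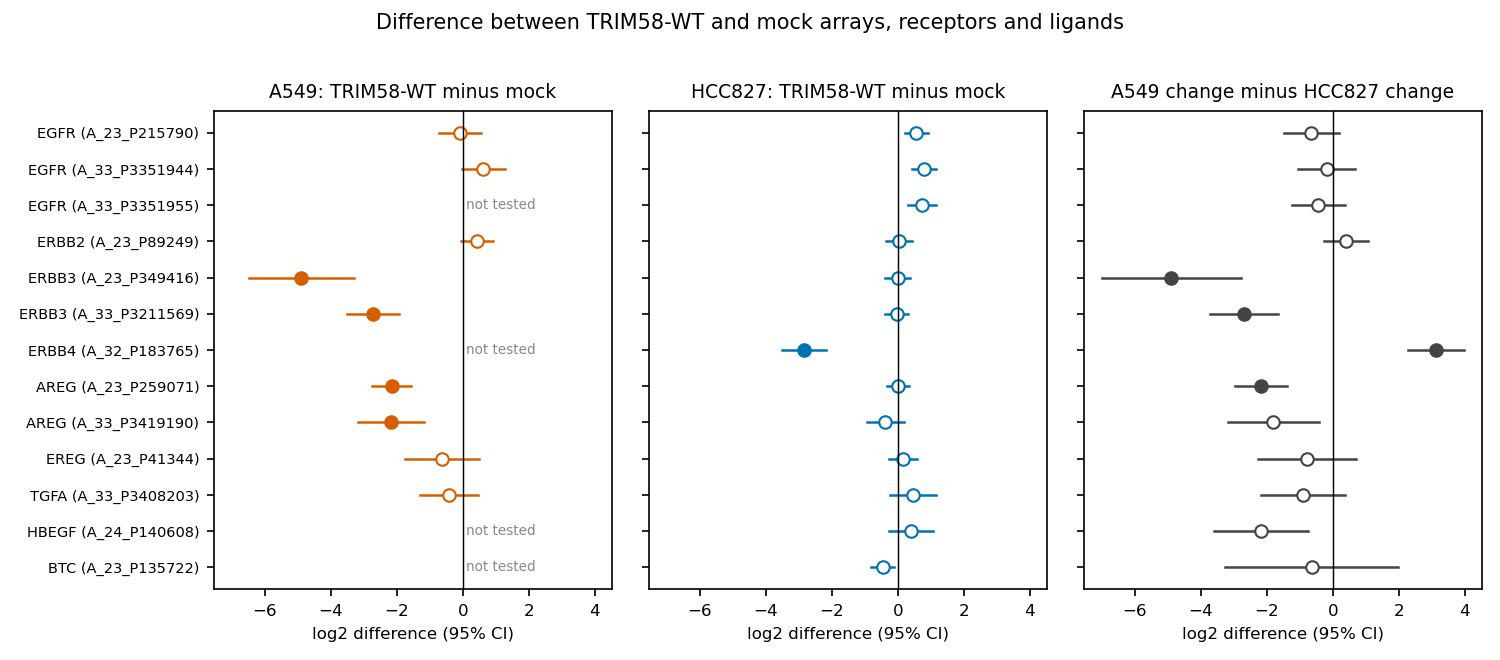
Log2 difference between TRIM58-WT and mock arrays (x axis) for each tested receptor and ligand probe (y axis) in A549, in HCC827, and as the A549 change minus the HCC827 change. Circles are estimates, lines are 95% confidence intervals and filled circles were called. In A549 the filled circles are those of ERBB3 at -4.89 and -2.73 and AREG at -2.15 and -2.18, and in HCC827 that of ERBB4 at -2.84.

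ERBB3 was lower by the widest margin among the receptors in A549. On the brighter probe, A_23_P349416, the relative log2 signal on A549 mock 1-1, 1-2, 2 and 3 was 1.28, 1.1, 1.16 and -1.23, and on TRIM58-WT 1, 2 and 3 it was -4.74, -4.59 and -4.23. On HCC827 mock 1 and 2 it was 1.65 and 1.49, and on HCC827 TRIM58-WT 1 and 2 it was 1.52 and 1.64. Every A549 mock array lay above every A549 TRIM58-WT array, none of the latter was well above background, and the HCC827 groups overlapped. ERBB3 fell by 4.89 ± 0.66 (SE) on the log2 scale in A549 (limma's adjusted p = 0.0106), which amounts to at least 8.01-fold when the TRIM58-WT arrays are set to the lowest signal well above background. That bound holds for the processed signal, and with normexp background correction the difference was -1.48 and the call was lost (limma's adjusted p = 0.0662). Fewer cells with ERBB3 RNA and less of it per cell cannot be told apart in these bulk samples.

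A549 mock 3, the array that stood apart, gave the lowest ERBB3 signal of the mock arrays. Without it the log2 difference was -5.69 (limma's adjusted p = 0.000248). Within the slide that holds mock 1-1, mock 2 and TRIM58-WT 1 it was -5.96 (limma's adjusted p = 0.0111), where the TRIM58-WT arm is 1 array and the spread comes from the mock arrays. Within the slide of mock 1-2, mock 3, TRIM58-WT 2 and 3 it was -4.34 (limma's adjusted p = 0.0627). Leaving out mock 1, TRIM58-WT 2 or TRIM58-WT 3 in turn also took the adjusted p past the threshold, to 0.0525, 0.0506 and 0.0511.

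A further ERBB3 probe, A_33_P3211569, followed the same order. It read -0.44, -0.66, -0.39 and -1.27 on A549 mock 1-1, 1-2, 2 and 3, and -3.98, -3.13 and -3.30 on TRIM58-WT 1, 2 and 3, again without overlap and with none of the TRIM58-WT arrays well above background. It fell by 2.73 ± 0.33 (limma's adjusted p = 0.00718), at least 3.71-fold, and by 3.00 without mock 3 (limma's adjusted p = 0.00408). With normexp background correction the difference was -0.66 and the call was lost (limma's adjusted p = 0.0553). In HCC827 the differences of both probes were 0.0041 (95% CI -0.38 to 0.38) and -0.032 (95% CI -0.38 to 0.31). The A549 change minus the HCC827 change was -4.90 on A_23_P349416 (limma's adjusted p = 0.0256) and -2.70 on A_33_P3211569 (limma's adjusted p = 0.0174), and these calls were lost under 10 and 7 of 21 other settings.

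The third ERBB3 probe, A_33_P3280471, did not follow the others. It was well above background on 1 array only, A549 TRIM58-WT 1, at -0.023, where the other 2 ERBB3 probes were at background. On the other A549 arrays it lay between -4.64 and -3.91, and on the HCC827 arrays between -4.91 and -3.20. It was well above background on no whole group and so did not enter the test over all A549 arrays. Within the slide where TRIM58-WT 1 is the only TRIM58-WT array it was called higher, by 4.61 (limma's adjusted p = 0.0111), opposite to the other ERBB3 probes on the same arrays.

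EGFR was measured by 3 probes. On A_23_P215790 the A549 mock 1-1, 1-2, 2 and 3 arrays read -0.41, -0.32, -0.27 and 0.24, and TRIM58-WT 1, 2 and 3 read -0.66, -0.04 and 0.03. HCC827 mock 1 and 2 read 4.31 and 4.22, and HCC827 TRIM58-WT 1 and 2 read 4.81 and 4.85. The A549 groups overlapped, both HCC827 TRIM58-WT arrays lay above both HCC827 mock arrays, and every HCC827 array lay far above every A549 array.

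None of the 3 EGFR probes was called for TRIM58-WT against mock in HCC827, although all pointed the same way. Their log2 differences were 0.56, 0.81 and 0.74 on A_23_P215790, A_33_P3351944 and A_33_P3351955, with 95% CIs of 0.22 to 0.91, 0.44 to 1.17 and 0.31 to 1.17. The adjusted p of limma was 0.132, 0.0883 and 0.122 in the same order, and the 3 probes measure 1 gene on the same 4 arrays. In A549 the difference was -0.092 (95% CI -0.73 to 0.55) on A_23_P215790 and 0.62 (95% CI -0.04 to 1.28) on A_33_P3351944, both not called. A_33_P3351955 was well above background on 1 of 4 A549 mock arrays and 2 of 3 TRIM58-WT arrays, between -2.83 and -1.86, and was not tested within A549.

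The size of the A549 difference on A_33_P3351944 varied with mock 3. On this probe mock 1-1, 1-2 and 2 read -1.61, -1.62 and -1.57, mock 3 read -0.71, and TRIM58-WT 1, 2 and 3 read -0.80, -0.62 and -0.61. Mock 3 lay among the TRIM58-WT arrays. Without mock 3 the difference was 0.92 (limma's adjusted p = 0.0233), which is still under 2-fold and so was not called.

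ERBB2, the partner without a known ligand, varied least among the receptors that were well above background on every array. A549 mock 1-1, 1-2, 2 and 3 read 2.59, 2.42, 2.61 and 2.93, and TRIM58-WT 1, 2 and 3 read 2.85, 3.20 and 3.31. HCC827 mock 1 and 2 read 3.35 and 3.13, and TRIM58-WT 1 and 2 read 3.27 and 3.29. Groups overlapped in both lines. The log2 difference was 0.44 (95% CI -0.05 to 0.93, limma's adjusted p = 0.244) in A549 and 0.045 (95% CI -0.34 to 0.43, limma's adjusted p = 0.875) in HCC827.

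ERBB4, a receptor for neuregulins and for some EGFR ligands, was well above background on the HCC827 mock arrays alone. Probe A_32_P183765 read -2.24 and -2.63 on HCC827 mock 1 and 2 and -5.03 and -5.53 on HCC827 TRIM58-WT 1 and 2, with no overlap. It lay between -5.48 and -4.75 on the A549 arrays, none of them well above background. ERBB4 fell by 2.84 ± 0.25 (SE) on the log2 scale in HCC827 (limma's adjusted p = 0.0375), which is at least 1.91-fold by the lowest signal well above background, under the 2-fold threshold once bounded. That bound holds for the processed signal, and under other settings the log2 difference was as small as -0.43. The call was lost without any of 3 of the 4 arrays, where the adjusted p was 0.186 without mock 1, 0.0953 without mock 2 and 0.0634 without TRIM58-WT 1. The A549 change minus the HCC827 change was 3.12 (limma's adjusted p = 0.00431), in a test that the probe entered through the HCC827 mock arrays alone. A_33_P3211558, the other ERBB4 probe, was well above background on no array, between -5.23 and -3.82.

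**Figure D2:**
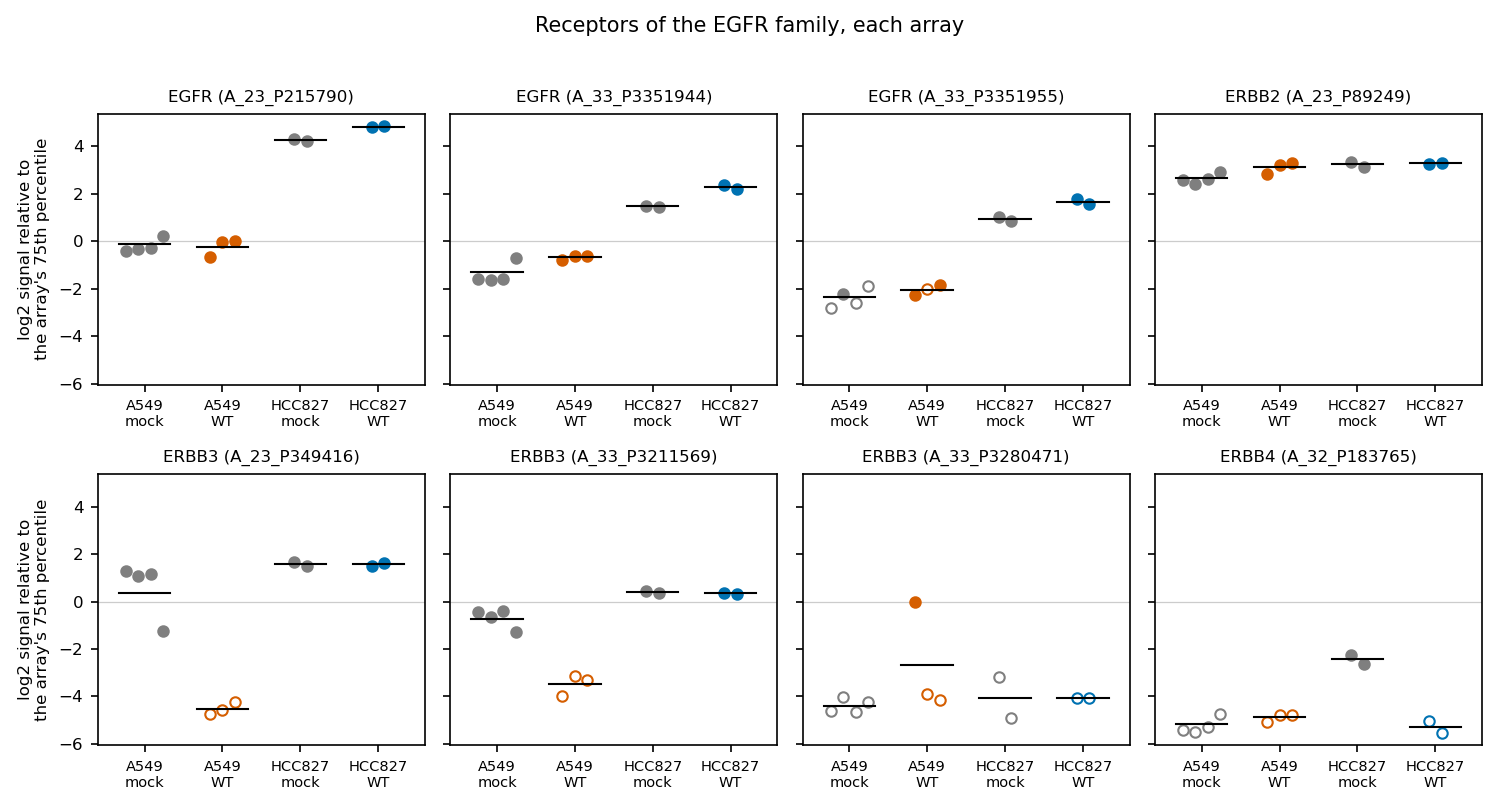
Relative log2 signal (y axis) of 8 receptor probes on each array, by group (x axis, WT for TRIM58-WT). Circles are arrays, filled where the probe was well above background, and lines are means over replicates, with A549 mock 1-1 and 1-2 counted as 1 replicate. A549 mock 3, the rightmost mock circle, is the lowest mock array for ERBB3 at -1.23 and -1.27 and the highest for EGFR at 0.24 and -0.71 on A_23_P215790 and A_33_P3351944.

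AREG, which encodes amphiregulin, was the ligand that fell in A549. On A_23_P259071, A549 mock 1-1, 1-2, 2 and 3 read 4.59, 4.59, 4.66 and 4.56, and TRIM58-WT 1, 2 and 3 read 1.95, 2.81 and 2.59. HCC827 mock 1 and 2 read 5.39 and 5.32, and HCC827 TRIM58-WT 1 and 2 read 5.36 and 5.37. The A549 groups did not overlap, the 4 mock arrays lay close together, and the HCC827 arrays were alike. AREG fell by 2.15 ± 0.25 (SE) on the log2 scale in A549, or 4.45-fold (95% CI 2.94 to 6.73, limma's adjusted p = 0.00658). The difference was -2.17 without mock 3 (limma's adjusted p = 0.0106), and -2.68 and -1.88 within the 2 slides, the first with 1 TRIM58-WT array.

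The other AREG probe, A_33_P3419190, read 2.18, 2.51, 1.90 and 2.40 on the A549 mock arrays and -0.90, 0.66 and 0.34 on the TRIM58-WT arrays. These groups did not overlap either, and the probe fell by 2.18 ± 0.42, or 4.54-fold (limma's adjusted p = 0.0293). Its adjusted p exceeded 0.05, at 0.0523 or more, when any 1 replicate other than TRIM58-WT 1 was left out. In HCC827 the log2 difference was 0.012 (95% CI -0.33 to 0.35) on A_23_P259071 and -0.37 (95% CI -0.93 to 0.18) on A_33_P3419190. The test of the difference between lines gave -2.17 on A_23_P259071 (limma's adjusted p = 0.0142, a call lost under 6 of 22 other settings, where it reached 0.0734) and -1.81 on A_33_P3419190 (limma's adjusted p = 0.150).

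EREG, which encodes epiregulin and lies close to AREG on chromosome 4, was not called in either line. A549 mock 1-1, 1-2, 2 and 3 read 1.13, 1.14, 1.06 and 1.74, and TRIM58-WT 1, 2 and 3 read -0.34, 1.35 and 1.05. HCC827 mock 1 and 2 read 3.57 and 3.52, and TRIM58-WT 1 and 2 read 3.84 and 3.55. Only TRIM58-WT 1 lay below the A549 mock arrays by a wide margin, and the groups overlapped. The difference was -0.63 (95% CI -1.74 to 0.49, limma's adjusted p = 0.468) in A549 and 0.15 (95% CI -0.27 to 0.57, limma's adjusted p = 0.602) in HCC827. Against the mock arrays of its own slide TRIM58-WT 1, alone there, differed by -1.43, and within the other slide the difference was -0.24 (limma's adjusted p = 0.605).

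The windows of 250 bases before the starts of AREG, EREG and ERBB4 are shown because AREG and ERBB4 were called and EREG is the neighbour of AREG that was not. They are from RefSeq on GRCh38.p14, at chr4:74444886-74445135 (plus strand) for AREG, chr4:74364895-74365144 (plus strand) for EREG and chr2:212538803-212539052 (minus strand) for ERBB4, each written 5′ to 3′ along the gene. Of the 10 genes, 9 had such a window, and ERBB3 had none. Capitals mark matches, on either strand, to a cAMP response element, an AP-1 site, a TATA box, an E-box or a GC box, and no matches overlap.
AREG: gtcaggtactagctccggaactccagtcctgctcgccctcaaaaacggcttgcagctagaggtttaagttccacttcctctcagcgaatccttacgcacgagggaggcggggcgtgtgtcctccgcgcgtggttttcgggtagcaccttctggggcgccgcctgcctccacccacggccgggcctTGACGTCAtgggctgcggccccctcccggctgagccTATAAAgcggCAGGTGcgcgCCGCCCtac
EREG: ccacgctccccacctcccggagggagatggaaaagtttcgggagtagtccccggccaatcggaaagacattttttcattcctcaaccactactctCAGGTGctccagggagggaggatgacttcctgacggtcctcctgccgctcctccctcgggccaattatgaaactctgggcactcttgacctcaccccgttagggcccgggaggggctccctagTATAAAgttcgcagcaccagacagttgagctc
ERBB4: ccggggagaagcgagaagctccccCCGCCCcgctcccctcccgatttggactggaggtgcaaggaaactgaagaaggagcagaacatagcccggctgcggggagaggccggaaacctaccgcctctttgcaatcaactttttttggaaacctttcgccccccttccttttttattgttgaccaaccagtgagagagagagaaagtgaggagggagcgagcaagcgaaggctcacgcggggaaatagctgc

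AREG and EREG both hold a TATA box, 29 and 32 bases before the start, and an E-box, 19 and 155 bases before it, and AREG has a GC box 9 bases before its start. AREG alone of the printed windows holds the cAMP response element, 65 bases before its start, and ERBB4 holds a GC box 226 bases before its start. The cAMP response element was searched as TGACGTCA and is held by 1.65% of all 35116 windows of this length. The AP-1 site was searched as TGANTCA and is held by 6.57% of them, with no match in the printed windows. The TATA box was searched as TATAAA and is held by 10.7%. The E-box was searched as CACCTG and is held by 17.5%, and the GC box, searched as GGGCGG, by 42.6%. A match is a description of letters, and binding at these windows was not measured on the arrays.

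TGFA, which encodes transforming growth factor alpha, gave 1 probe well above background on every array, A_33_P3408203. A549 mock 1-1, 1-2, 2 and 3 read -1.16, -0.74, -0.67 and -0.53, and TRIM58-WT 1, 2 and 3 read -1.97, -0.68 and -0.75. HCC827 mock 1 and 2 read -2.15 and -1.65, and TRIM58-WT 1 and 2 read -1.66 and -1.20. The groups overlapped in both lines. The difference was -0.42 (95% CI -1.31 to 0.47) in A549 and 0.47 (95% CI -0.22 to 1.17) in HCC827. A_23_P377291, the other TGFA probe, was well above background on no array, between -5.09 and -3.87.

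HBEGF, the heparin-binding ligand, was not tested within A549 because neither group was well above background throughout. A549 mock 1-1, 1-2, 2 and 3 read -2.18, -2.14, -2.23 and -3.57, the last at background, and TRIM58-WT 1, 2 and 3 read -4.01, -4.69 and -4.61, all at background. Mock 3 was again the mock array nearest to the TRIM58-WT arrays. With all arrays no bound on the fold could be given. Without mock 3 the probe entered the test through the mock arrays alone and was at least 1.35-fold lower on the TRIM58-WT arrays (limma's adjusted p = 0.00631). In HCC827 it read -1.27 and -1.35 on mock 1 and 2 and -0.58 and -1.23 on TRIM58-WT 1 and 2, a difference of 0.40 (95% CI -0.27 to 1.08).

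BTC, which encodes betacellulin, also split the A549 mock arrays. Mock 1-1, 1-2 and 2 read -1.28, -1.37 and -1.50 and were well above background, and mock 3 read -3.78 and was not. Of the TRIM58-WT arrays, 1 was well above background at -2.0 and the others lay at -4.13 and -3.77. In HCC827 the mock arrays read 0.69 and 0.56 and the TRIM58-WT arrays read 0.13 and 0.20, which did not overlap, with a log2 difference of -0.46 that was not called (limma's adjusted p = 0.182). Without A549 mock 3, BTC differed by -1.89 between the A549 groups and was not called (limma's adjusted p = 0.124). EGF, the ligand that names the family, was well above background on no array, between -4.67 and -2.74.

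**Figure D3:**
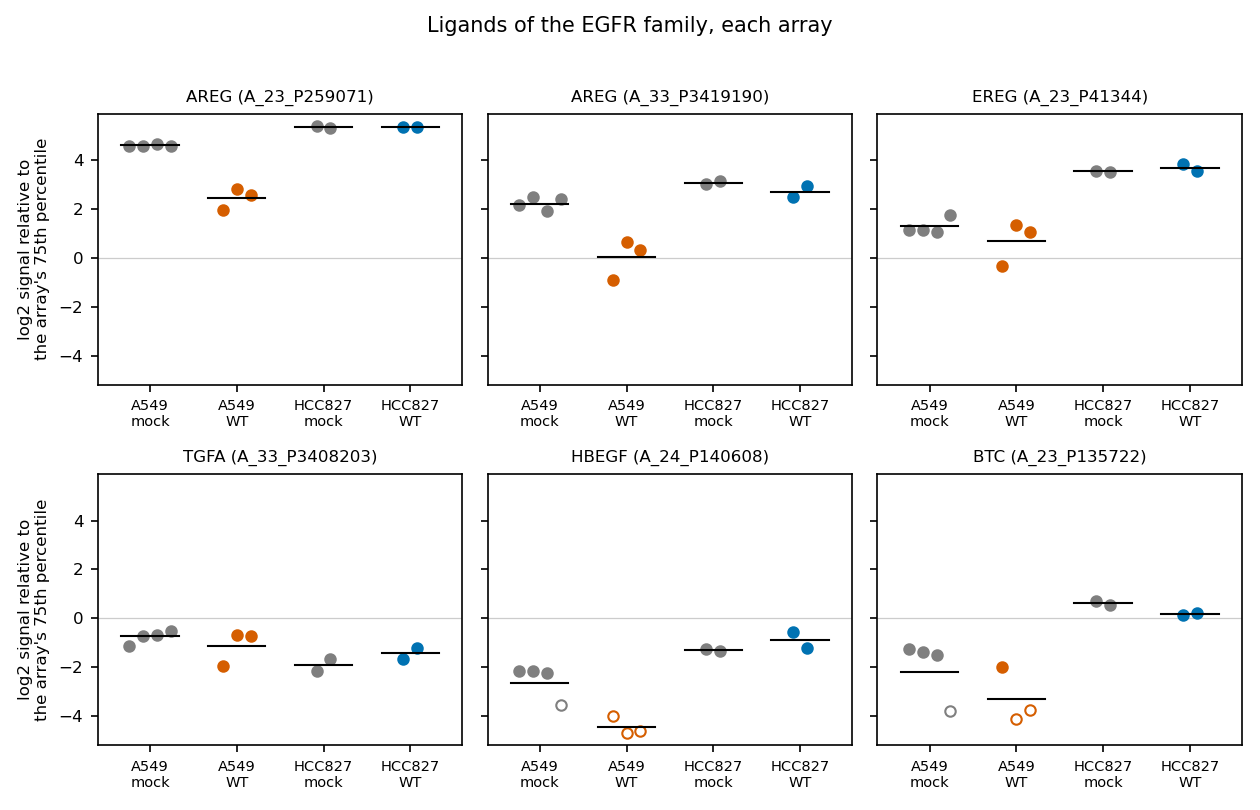
Relative log2 signal (y axis) of 6 ligand probes on each array, by group (x axis, WT for TRIM58-WT). Circles are arrays, filled where the probe was well above background, and lines are means over replicates, with A549 mock 1-1 and 1-2 counted as 1 replicate. Both AREG probes separate the A549 groups, at 4.56 to 4.66 against 1.95 to 2.81 on A_23_P259071, and A549 mock 3 lies away from the other mock arrays for HBEGF at -3.57 and BTC at -3.78.

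Among the mock arrays, the 2 lines differed in most of the family in the main test. HCC827 mock arrays held more EGFR, ERBB4, EREG, HBEGF and BTC RNA than A549 mock arrays, and A549 held more TGFA. The HBEGF and TGFA calls were lost under most other settings. Of 13 member probes tested between the mock groups, 9 were called, 1 higher and 8 lower in A549, whereas 30.1% of all 19505 tested probes were called, 14% higher and 16.1% lower. ERBB4, HBEGF, BTC and the EGFR probe A_33_P3351955 entered this test through the HCC827 mock arrays alone and so could only be lower in A549. When every array had to be well above background, 5 of 9 member probes were called, beside 22.8% of all probes. The median log2 difference over the 13 was -1.35, beside -0.07 over all tested probes. All HCC827 arrays lay on 1 slide. Within that slide, against A549 mock 1-1 and mock 2, 7 of 13 member probes were called, beside 6731 of all 20085 tested probes. There ERBB3 (A_33_P3211569), HBEGF and TGFA differed by -0.80, -0.90 and 0.99 on the log2 scale, under 2-fold, and the AREG probe A_33_P3419190 was called at -1.04.

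EGFR RNA was lower in A549 by 21.1-fold on A_23_P215790 (log2 difference -4.40, 95% CI -4.99 to -3.81), by 6.84-fold on A_33_P3351944 and by 9.67-fold on A_33_P3351955. The adjusted p of limma was at most 7.34e-05 on these 3 probes. Among the ligands, BTC was lower by 7.08-fold (95% CI 1.96 to 25.6), EREG by 4.70-fold (95% CI 2.27 to 9.75) and HBEGF by 2.54-fold (95% CI 1.27 to 5.09). Without A549 mock 3, at background for BTC, the order turned, with BTC lower by 4.09-fold and EREG by 5.46-fold. ERBB4, at background in A549, was at least 1.37-fold lower on the processed signal (limma's adjusted p = 6.92e-05). Under other settings its log2 difference was as small as -0.21.

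TGFA was the member that was higher in A549, by 2.27-fold (95% CI 1.22 to 4.23, limma's adjusted p = 0.0386). This call was lost under 13 of 19 other settings, among them every single replicate left out. HBEGF was lost under 11 of 18, and without A549 mock 3 its log2 difference was -0.89 in place of -1.35. ERBB3 was called on A_33_P3211569 at -1.12 (limma's adjusted p = 0.0210) but not on A_23_P349416 at -1.20 (limma's adjusted p = 0.170). The A_33_P3211569 call was lost under 8 of 19 other settings. ERBB2 at -0.55 and AREG at -0.75 and -0.87 were not called.

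**Figure D4:**
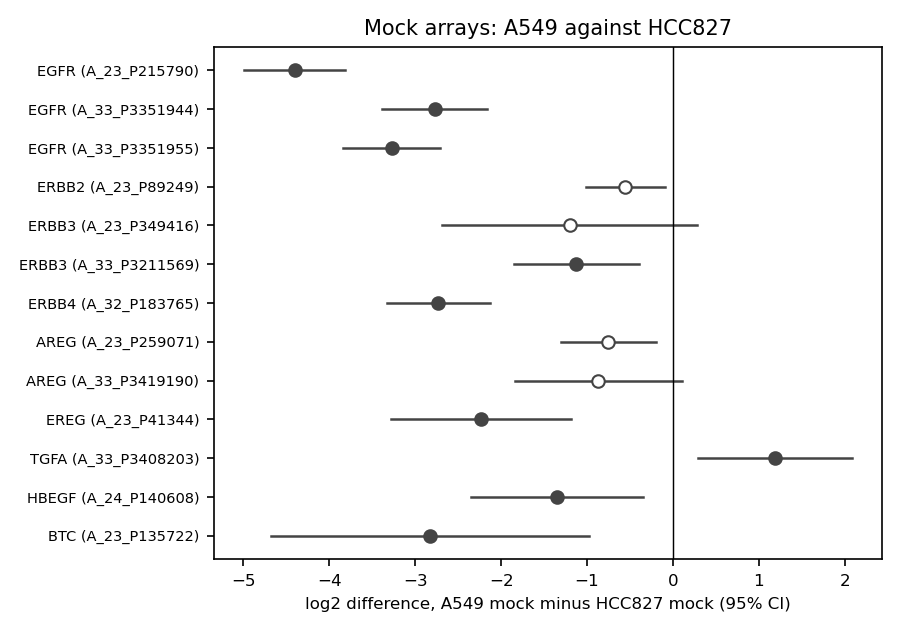
Log2 difference between A549 mock and HCC827 mock arrays (x axis) for 13 receptor and ligand probes (y axis), with 95% confidence intervals as lines and called probes as filled circles. The 3 EGFR probes lie at -4.40, -2.77 and -3.27, BTC at -2.82, and TGFA at 1.19 is the filled circle to the right of 0.

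The rest of the pathway was counted in lists of ligands, proteases, signalling proteins, inhibitors and output genes, each gene by its brightest tested probe. In A549, 2 of 13 tested feedback inhibitors and 2 of 13 tested early response and output genes were called, all lower on the TRIM58-WT arrays, beside 3.43% of all probes called lower. None of 2 other ligands, 5 proteases and their partners and 25 adaptors and core signalling genes was called. The median log2 difference was 0.13 for the inhibitors, -0.06 for the output genes and 0.14 for the core signalling genes, beside 0.06 over all tested probes.

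Both inhibitors that fell act on the pathway at different levels. ERRFI1, which binds and inhibits the EGFR kinase, read 3.20, 3.18, 3.05 and 3.41 on the A549 mock arrays and 2.45, 1.19 and 1.17 on the TRIM58-WT arrays, and fell by 1.61 ± 0.37 (limma's adjusted p = 0.0475). DUSP4, a phosphatase of MAP kinases, read 4.26, 4.33, 4.33 and 4.47 against 3.02, 3.37 and 3.48, and fell by 1.08 ± 0.18 (limma's adjusted p = 0.0200). The groups did not overlap for either gene. Leaving out 1 of the 6 replicates lost ERRFI1 in 5 cases and DUSP4 in 5, and without mock 3 the adjusted p was 0.0847 for ERRFI1 and 0.0317 for DUSP4.

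Among output genes, ATF3, a stress-induced transcription factor, fell by 1.82 (limma's adjusted p = 0.0382) and CCND1, which encodes cyclin D1, fell by 1.13 (limma's adjusted p = 0.0395). ATF3 read 1.68, 1.70, 1.79 and 0.75 on the mock arrays and -1.03, -0.04 and -0.15 on the TRIM58-WT arrays. CCND1 read 2.74, 2.77, 2.94 and 2.82 against 1.21, 2.01 and 1.90. Neither gene overlapped between the groups. Leaving out 1 of the 6 replicates lost the call of ATF3 in 5 cases and of CCND1 in 6, and without mock 3 the adjusted p was 0.0171 for ATF3 and 0.0607 for CCND1.

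In HCC827, 1 of 15 feedback inhibitors was called and none of 15 output genes, 26 core signalling genes, 4 proteases and their partners and 1 other ligand, beside 0.884% of all probes. LRIG1, a membrane protein that promotes the breakdown of EGFR family receptors, read 0.34 and 0.01 on the mock arrays and -2.89 and -2.64 on the TRIM58-WT arrays, and fell by 2.94 ± 0.19 (limma's adjusted p = 0.0287), a call that was lost in 3 of 4 cases when 1 replicate was left out. It differed from A549, where the difference was 0.81 and was not called, by 3.75 in the test between lines (limma's adjusted p = 0.0457), a call lost in 7 of 10 cases when 1 replicate was left out. Without A549 TRIM58-WT 1, which read 1.95 beside -0.25 and -0.023 on TRIM58-WT 2 and 3, the A549 difference was 0.11 and that between lines 3.06 (limma's adjusted p = 0.00336). DUSP4 also differed between the lines, by -1.93 (limma's adjusted p = 0.00648), with a difference in HCC827 of 0.85 that was not called.

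**Figure D5:**
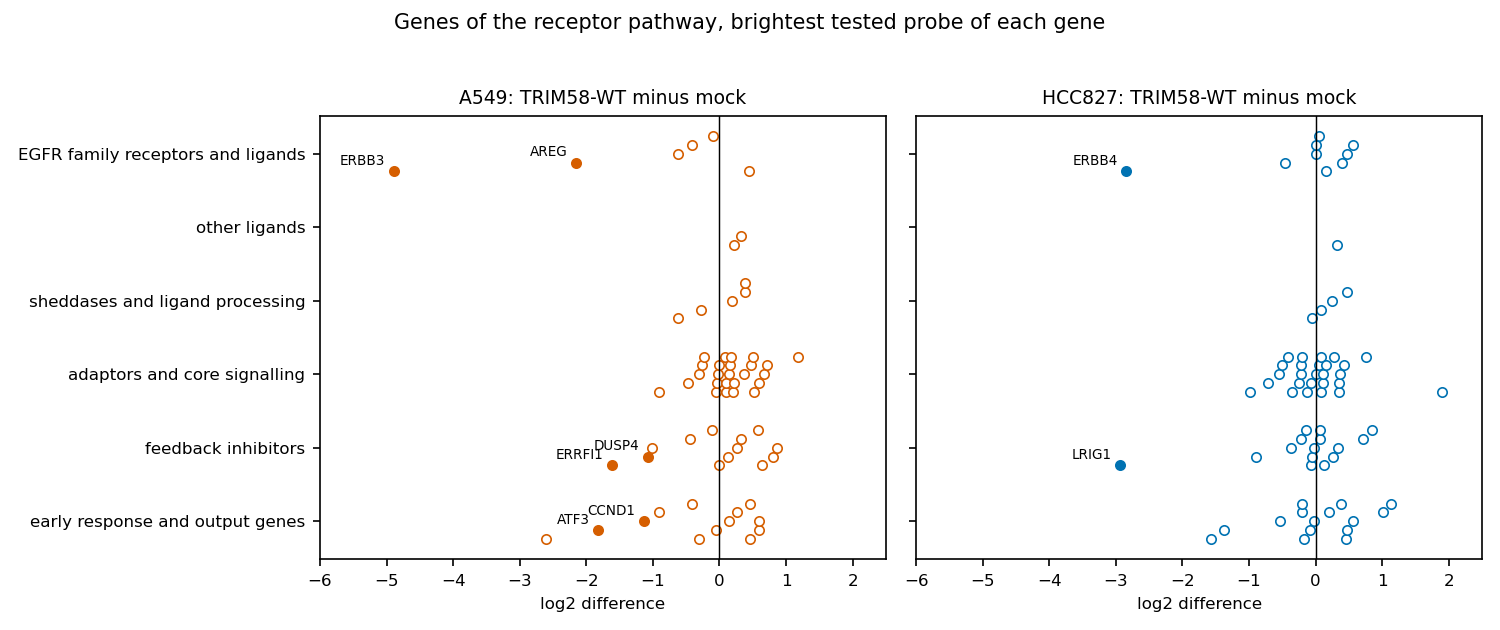
Log2 difference between TRIM58-WT and mock arrays (x axis) for the genes of each pathway list (y axis), in A549 and HCC827. Each circle is the brightest tested probe of a gene, and called genes are filled and named. Beside ERBB3, AREG and ERBB4, the filled circles are DUSP4, ERRFI1, ATF3 and CCND1 in A549, between -1.82 and -1.08, and LRIG1 in HCC827 at -2.94.

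Between the mock groups, 25 of 62 tested pathway genes were called, beside 30.1% of all probes. Of 15 feedback inhibitors, 6 were lower in A549, beside 16.1% of all probes, and DUSP4 was higher at 4.39. Among the 6 were SPRY1 at -2.89 and SPRY2 at -2.28, inhibitors of receptor tyrosine kinase signalling. SPRY2 and a further gene of the 6 entered this test through the HCC827 mock arrays alone and so could only be lower in A549. Of 15 output genes, 5 were lower in A549, among them EGR1 at -4.79, FOSL1 at -2.54, JUN at -1.59 and MYC at -1.51. EGR1 and FOSL1 are transcription factors induced by MAP kinase signalling. EGR1 also entered through the HCC827 mock arrays alone and so could only be lower in A549. IER3 at 2.91 was among the 2 that were higher. The ligand NRG4, a neuregulin that binds ERBB4, was at background in HCC827 and at least 8.77-fold higher in A549. ADAM12, a protease, was at least 4.22-fold higher on the same basis. NRG4 and ADAM12 entered through the A549 mock arrays alone and so could only be higher there. Of the core signalling genes, 3 were higher and 6 lower, with a gene among the 6 that entered through the HCC827 mock arrays alone.

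Some markers of epithelial and mesenchymal cells also differed between the A549 groups. Of 7 tested epithelial markers, 4 were lower on the A549 TRIM58-WT arrays, beside 3.43% of all probes, and KRT19, a keratin, fell from a mean of 6.97 to -2.53. Of these 4, KRT19, CLDN4 and EPCAM entered the test through the mock arrays alone and so could only be lower. Between 7 and 8 of 10 epithelial markers were well above background on an A549 mock array and 4 to 5 on a TRIM58-WT array, with KRT19, CLDN4 and CLDN7 at background there and ESRP1 and GRHL2 at background in both A549 groups. The summed signal of the list, in multiples of the 75th percentile, was 1511 to 2304 on mock arrays and 1096 to 1720 on TRIM58-WT arrays. Of 4 tested mesenchymal markers, CDH2 and COL1A1 were higher, beside 3.49% of all probes. COL1A1 entered through the TRIM58-WT arrays alone and so could only be higher. The summed signal of 8 markers was 28.7 to 193 on A549 mock arrays, highest on mock 3, and 122 to 396 on TRIM58-WT arrays. Leaving out 1 of the 6 replicates lost the call of KRT19 in 0 cases, of EPCAM, CLDN4 and KRT8 in 4 each, of COL1A1 in 3 and of CDH2 in 5. In HCC827, all 10 epithelial markers were well above background on every array and none was called. The part of these differences in the ERBB3 and AREG results was not tested.

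No lung lineage marker was called in HCC827. The summed signal of 5 markers was 59.8 to 69.7 on HCC827 mock arrays and 25.9 to 32.5 on TRIM58-WT arrays, and NKX2-1, a transcription factor of the lung lineage, was well above background on no A549 array and on every HCC827 array. In HCC827 the log2 difference was -1.07 for NKX2-1, -1.30 for NAPSA and 0.90 for FOXA2. Their part in the ERBB4 result was not tested. None of 3 endothelial markers was well above background on any array, and of 4 blood markers at most 2 were. The summed signal of the blood markers was 1.87 to 2.03 on A549 mock 1-1, 1-2 and 2, 0.46 on mock 3 and 0.30 to 0.62 on the A549 TRIM58-WT arrays. HBB, which encodes a haemoglobin chain, was well above background on 3 of 4 A549 mock arrays and on no TRIM58-WT array, with means of -0.43 and -4.41. Its part in the ERBB3 and AREG results was not tested.

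Genes whose signal followed each receptor most closely over the 10 replicates were named by Pearson's r among 12853 genes, as a description. For EGFR these were SLC43A3, RAC2 and TUBBP5 (r between 0.998 and 0.999), for ERBB2 GDF11, AHDC1 and NUDT3 (0.979 to 0.987), for ERBB3 RAB17, PRELID3B and SCEL (0.990 to 0.991), and for ERBB4 KISS1R, MEDAG and AMOT (0.988 to 0.991). The replicates share 2 lines and 2 slides, and the difference between lines enters every r.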

How the data were processed

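RNA of A549 and HCC827 stable transfectants was hybridised in 1 colour to Agilent arrays of 60-mer probes. Per the file headers, the authors extracted the deposited spot intensity values with Feature Extraction 11.5.1.1 (the submitters' processing notes give 10.7), which subtracted background and removed trends within the array, without scaling between arrays. Flags for signal well above background and for outlier spots came with them. A log2 value table deposited by the authors, scaled to the 75th percentile and centred for each probe, matched the spot values within 0.01 in 95.5% of its cells.

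Here, control and outlier spots were left out, replicate spots were averaged, and log2 values were taken minus the array's 75th percentile. A probe was well above background where a share over 0.5 of its spots was, and entered a test if that held throughout 1 or more of the compared groups. Tests used limma 3.58.1 (R 4.3.3), two-sided, separately in each line and over all groups for the comparison of mock groups and for the difference between lines. A549 mock 1-1 and 1-2, from the same control cell, were averaged. Symbols came through RefSeq accessions (27237 of 42405 probes named). A bound of "at least" set dim arrays to their lowest signal well above background over all probes, and holds for the processed signal only. In simulated data with 200 probes changed by 2 (log2), 73.0% were recovered in the A549 design and 56.5% in the HCC827 design, with 11 and 6 false calls. The simulated replicates varied independently, unlike the nearly identical A549 TRIM58-WT 2 and 3, so these shares need not hold for the real arrays. Saturated spots were 0 on every array, and the number of arrays limits precision. The genes and lists were chosen with earlier results of these data known. Named genes were all members, up to 5 called genes for each pathway list and comparison with the largest change, and the 3 genes most like each receptor. Figures were drawn with matplotlib 3.10.9. Alternatives were a median shift, quantile normalization, normexp background correction, other filters, the replicate number or slide as a block, other uses of mock 1-1 and 1-2, outlier spots kept, the authors' log2 table, the methods' t-test and each replicate left out. The replicate numbers were not used to pair the samples in the main tests (see the closing section).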

Additional observations from a re-analysis of the deposited data

Results flagged for a closer look

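The change from mock to TRIM58-WT differed between A549 and HCC827 for 4 receptor and ligand probes, by a linear contrast over both lines. AREG (A_23_P259071) differed by -2.17 on the log2 scale, and its other probe, A_33_P3419190, at -1.81, did not pass the test. ERBB3 differed by -4.90 on A_23_P349416 and by -2.70 on A_33_P3211569, where the A549 TRIM58-WT arrays were at background, so that these values depend on the background level. ERBB4 (A_32_P183765) differed by 3.12, with the HCC827 TRIM58-WT arrays and all A549 arrays at background. Outliers were not tested because no group holds 4 or more replicates.

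The ERBB3 probe A_33_P3280471, which did not enter the test over all A549 arrays, was well above background on 1 array, A549 TRIM58-WT 1, at -0.023, and on no mock array.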

How the results depend on the processing

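Of 351 recomputed values of called receptor and ligand probes, 267 kept their call, 84 lost it and 0 changed sign, and of the values of probes not called, 6 gained a call and 14 changed sign. In A549, the 4 called member probes became 2 (AREG, without ERBB3) with normexp background or when every array had to be well above background (the strict filter), 7 within slide 1 (1 TRIM58-WT array), 0 by the methods' t-test (4 at an unadjusted p under 0.05) and 2 to 4 when 1 replicate was left out, with 2 without mock 1, TRIM58-WT 2 or TRIM58-WT 3. In HCC827, the 1 called probe, ERBB4, became 0 with normexp, with no filter, with the strict filter and by the t-test, and 0 to 1 when a replicate was left out (0 without mock 1, mock 2 or TRIM58-WT 1, with 4, 2 and 4 at an unadjusted p under 0.05), while 4 to 6 of the members had an unadjusted p under 0.05 under the first 4 settings. Between the mock groups, 9 became 5 with normexp or the strict filter, 4 by the t-test, and 5 to 8 when a replicate was left out (5 without either HCC827 array, 6 without A549 mock 3). For the difference between lines, 4 became 1 with normexp or the strict filter, and 1 to 5 when a replicate was left out (1 without any HCC827 array, 2 without A549 mock 1).

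Over all probes, the 1171 calls in A549 became 507 with normexp, 609 with no filter, 673 with the strict filter, 1802 with slide as a block, 4508 within slide 1, 649 within slide 2 and 24 by the t-test, and ranged from 297 without mock 1 to 2193 without mock 3 (360, 372 and 313 without mock 2, TRIM58-WT 2 and TRIM58-WT 3). The 173 in HCC827 became 633 with a median shift, 106 with normexp, 367 with the strict filter, and 0 with no filter (4381 at an unadjusted p under 0.05) and by the t-test (1500), and ranged from 0 without mock 1 (2657 at an unadjusted p under 0.05) or mock 2 (2678) to 461 without TRIM58-WT 2. The 5873 between the mock groups became 3029 with normexp, 3376 with the strict filter and 3003 by the t-test. The 796 for the difference between lines became 527 with a median shift, 452 with no filter, 394 with the strict filter, 1688 with slide as a block and 1358 with mock 1-1 and 1-2 separate, and ranged from 224 without HCC827 mock 1 to 2216 without A549 mock 3. The cause was not tested. The median shift moved the median of all probes by -0.37 in A549 and by -0.40 in the difference between lines, and the higher share among calls from 50.5% to 25.6% in A549, from 32.9% to 45.7% in HCC827 and from 47.4% to 27.9% in the difference.

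Same-numbered A549 replicates deviated together with r of 0.50, -0.42 and 0.50, while mock 3 and TRIM58-WT 2 gave 0.57. Those of HCC827 gave 0.08 and 0.08, which with 2 replicates in each group is a single value and cannot show pairing or its absence. The numbers were therefore not used to pair the samples in the main tests. With the replicate number as a block, 4 members and 1119 probes were called in A549, 0 members and 0 probes in HCC827 (6 and 3850 at an unadjusted p under 0.05), and 1 member and 323 probes in the difference between lines.

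The values that changed sign were all small and not called. EGFR (A_23_P215790) in A549 was 0.036 within slide 2, and with 1 replicate left out it ranged from -0.22 to 0.12, above 0 without mock 3 (0.092) and without TRIM58-WT 1. TGFA in A549 ranged from -0.64 to 0.000128. In HCC827, AREG (A_23_P259071) was -0.079 with normexp and ranged from -0.026 to 0.050, ERBB2 ranged from -0.064 to 0.15, ERBB3 ranged from -0.077 to 0.085 on A_23_P349416 (-0.055 without TRIM58-WT 2), and ERBB3 on A_33_P3211569 was 0.011 with normexp and ranged from -0.070 to 0.0065. For the difference between lines, BTC was 0.13 with normexp, EGFR (A_33_P3351944) ranged from -0.34 to 0.11 and ERBB2 was -0.0058 with a median shift. In an alternative chosen after seeing the data, the pathway genes called for the difference between lines went from 2 of 63 tested to 5 without A549 mock 3. Over all probes, the calls went from 796 of 20642 to 2216 of 21005 in the same step. Where a replicate left 1 array in a group, that array was assumed to vary like the others. Probes near background limit ERBB4, HBEGF, BTC and the A549 TRIM58-WT values of ERBB3.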
